A study of Mus musculus with 5 samples.

Results

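Desmosomes are the spot junctions that hold the keratinocytes of the epidermis together. Desmosomal cadherins of 2 families, the desmogleins and the desmocollins, bind across the gap between neighbouring cells, their tails bind the armadillo proteins plakoglobin and plakophilin in the plaque, and desmoplakin ties the plaque to the keratin filaments. In stratified epithelium the cadherins are layered, with desmoglein 3 and desmocollin 3 strongest in the basal layers and desmoglein 1 and desmocollin 1 strongest in the upper layers. Innate lymphoid cells are not known to build desmosomes.

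The 10 genes examined here encode 4 desmogleins (*Dsg1a*, *Dsg1b*, *Dsg2*, *Dsg3*), 3 desmocollins (*Dsc1*, *Dsc2*, *Dsc3*) and 3 plaque proteins (*Dsp*, *Jup*, *Pkp1*). They were taken by gene symbol from the 47729 genes of the count table, and all 10 were found and passed the filter on low counts, which left 19011 genes to test. RNA was sequenced from dermal group 2 innate lymphoid cells (dILC2s) sorted from the skin of female C57BL/6 mice aged 8 to 13 weeks, without stimulation outside the animal. The gate took viable CD45+ CD90hi cells negative for CD2 and CD3. The WT group held 3 libraries (pools 5, 6 and 13), each from a pool of 10 mice, and the Rag1-/- group held 2 libraries (pools 2 and 7), each from a pool of 9 mice by the methods of the study, or 16 mice in all by the labels. Rag1-/- mice lack the recombinase needed for antigen receptors in every cell, and so lack mature T and B cells, on the same C57BL/6 background as the WT mice. The cell type field of both Rag1-/- samples reads type 3 innate lymphoid cells, whereas the protocols name dILC2s for all samples.

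Total counts on genes lay between 32939428 and 39477243 in WT libraries and were 8050562 and 38922750 in Rag1-/- pools 2 and 7, so that 3 counts stood for 0.373 CPM (counts scaled to a library total of 1000000) in pool 2 and for at most 0.0911 CPM in the other libraries. For *Rag1* itself, WT pools 5, 6 and 13 gave 4, 0 and 5 counts, whereas pools 2 and 7, labelled Rag1-/-, gave 5 and 48, so that the targeted transcript was not lower there. Whether these counts lie in the deleted part of the gene was not tested, and counts outside it would not check the labels. ILC2 marker genes (14 genes, among them *Gata3* and *Il7r*) summed to between 1467 and 2923 CPM in WT and between 5659 and 7617 CPM in Rag1-/- libraries. A list of 30 epidermal genes that holds none of the 10 desmosome genes summed to between 32911 and 47090.4 CPM in WT and to 8812 and 20636 CPM in Rag1-/- pools 2 and 7. Epidermal transcripts were therefore detected at high levels in all 5 libraries of cells sorted as CD45+.

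All 10 desmosome genes were lower in both Rag1-/- libraries than in every WT library. Together they made up 1.15%, 0.947% and 0.778% of all counts in WT pools 5, 6 and 13, and 0.168% and 0.334% in Rag1-/- pools 2 and 7. Groups that did not overlap, with Rag1-/- lower, were found in 24.0% of all genes tested. In edgeR's quasi-likelihood test with Benjamini-Hochberg adjustment over all genes, 7 of the 10 fell, with an adjusted p under 0.05 and a log2 fold change beyond 1 in size, where 2.16% of all genes tested were called lower. The median log2 fold change (Rag1-/- against WT) was -1.96 over the 10 genes and 0.02 over all genes tested. In bulk RNA, fewer cells of a type and less RNA per cell cannot be told apart. The 24 genes of a leukocyte list summed to between 1117 and 2712 CPM in WT and 7886 and 8791 CPM in Rag1-/- libraries, with none of them at 0 in any library, and the part of these shifts in the result was not tested.

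**Figure D1:**
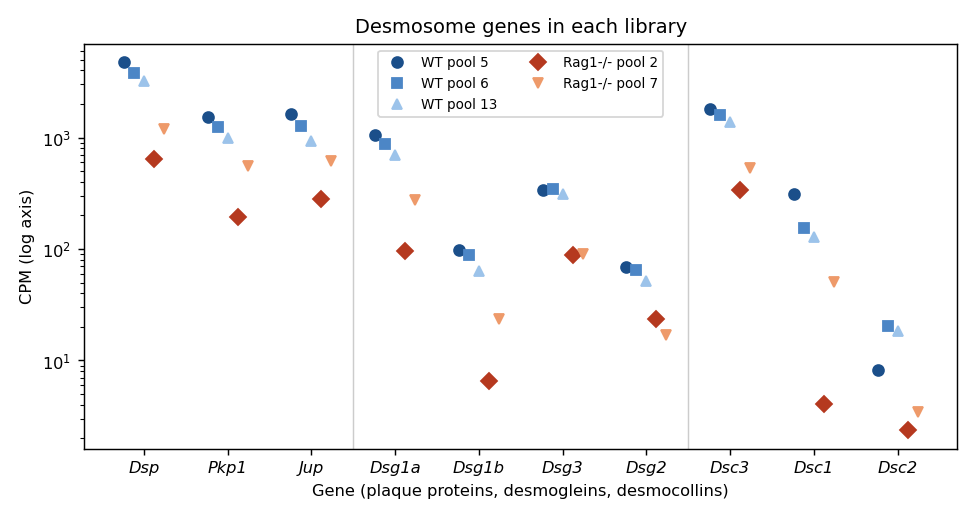
CPM (log axis) of the 10 desmosome genes, with 1 point for each of the 5 libraries and the plaque proteins, desmogleins and desmocollins divided by lines. In each gene both Rag1-/- points lie under all 3 WT points, and pools 2 and 7 lie furthest apart in *Dsc1*, at 4.10 and 51.0 CPM.

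Among the desmogleins, *Dsg3*, the basal-layer desmoglein and the main target of antibodies in pemphigus vulgaris, had 339, 348 and 312 CPM in WT pools 5, 6 and 13 and 87.6 and 90.6 CPM in Rag1-/- pools 2 and 7. It was the most even of the 10 genes within each genotype, with a highest WT pool 1.12 times the lowest and Rag1-/- pools in a ratio of 1.03. *Dsg3* fell by 1.87 on the log2 scale (standard error 0.20, adjusted p = 0.0306, edgeR), a level 3.65-fold lower.

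*Dsg2*, the most widely expressed desmoglein, found also in simple epithelia and heart, had 69.0, 65.3 and 51.7 CPM in WT pools 5, 6 and 13 and 23.7 and 16.8 CPM in Rag1-/- pools 2 and 7. It was the only one of the 10 genes that was higher in Rag1-/- pool 2 than in pool 7. *Dsg2* fell by 1.59 on the log2 scale (adjusted p = 0.0306 with edgeR, standard error 0.24). An antisense gene, *Gm16090*, shares 330 exonic bases with *Dsg2* and had at most 29 counts in any library. The library kit named in the labels was TruSeq RNA v2, and whether counting used strand is not given in the sources used here, so that reads of this overlap could not be assigned to a strand.

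*Dsg1a* encodes desmoglein 1 alpha, of the desmoglein that dominates the upper epidermis and is cleaved by staphylococcal exfoliative toxin. It had 1054, 867 and 697 CPM in WT pools 5, 6 and 13 and 95.4 and 278 CPM in Rag1-/- pools 2 and 7. *Dsg1b*, its neighbouring copy, had 98.0, 88.1 and 62.9 CPM in WT and 6.58 and 23.7 CPM in Rag1-/- pools 2 and 7. In both genes WT pool 5 was highest and Rag1-/- pool 2 lowest. The log2 fold changes were -2.18 for *Dsg1a* (standard error 0.49, adjusted p = 0.0482) and -2.37 for *Dsg1b* (standard error 0.53, adjusted p = 0.0482, edgeR for both), close to the threshold. *Dsg1b* was past it no longer with edgeR's robust fit (adjusted p = 0.056, 2.28% of all genes called lower) or with all libraries thinned to the shallowest (adjusted p = 0.061, 2.87% called lower).

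The mouse *Dsg1* copies share part of their sequence exactly, which bears on how their reads can be counted. Of the 50-base words in the longest GENCODE M21 transcript, the read length used, 35.0% in *Dsg1a* and 48.9% in *Dsg1b* also occur in a transcript of another gene, and for 1780 of these words that gene is the other of the pair. Words shared with other genes made up 5.07% in *Dsg2*, 4.72% in *Dsp* and 0.13% in *Dsg3*, and none were found in *Dsc1*, *Dsc2*, *Dsc3*, *Jup* and *Pkp1*. How the authors treated reads that map to several places is not given in the sources used here, so the split between the *Dsg1* copies is uncertain. Summed over *Dsg1a*, *Dsg1b* and *Dsg1c*, the log2 fold change was -2.19 (adjusted p = 0.0488, edgeR). *Dsg1b* held between 8.27% and 9.22% of the *Dsg1a* and *Dsg1b* counts in WT and 6.46% and 7.85% in Rag1-/- pools 2 and 7 (exact 95% intervals 4.87% to 8.36% and 7.37% to 8.35%).

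Among the desmocollins, *Dsc3*, the basal-layer form that is needed for adhesion in the epidermis, was by far the most abundant. It had 1791, 1601 and 1390.2 CPM in WT pools 5, 6 and 13 and 338 and 528 CPM in Rag1-/- pools 2 and 7. The WT pools were close together, and *Dsc3* fell by 1.84 on the log2 scale (standard error 0.30, adjusted p = 0.0306, edgeR).

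*Dsc1*, the desmocollin of the upper layers, had 311, 153 and 128 CPM in WT pools 5, 6 and 13 and 4.10 and 51.0 CPM in Rag1-/- pools 2 and 7. The 4.10 CPM in pool 2 stood for 33 counts. Its log2 fold change of -2.75 was further from 0 than that of any other of the 10 genes, yet it missed the threshold with edgeR (adjusted p = 0.124, standard error 0.94) and with DESeq2 (adjusted p = 0.0884). The spread between the pools of one genotype was wide, with a highest WT pool 2.42 times the lowest and Rag1-/- pool 7 at 12.4 times pool 2 (exact 95% counting interval 8.83 to 18.1).

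*Dsc2*, which is found in most desmosome-bearing tissues and in heart, was the scarcest of the 10 genes. It had 8.22, 20.2 and 18.5 CPM in WT pools 5, 6 and 13 and 2.36 and 3.44 CPM in Rag1-/- pools 2 and 7. It was the only one of the 10 with its lowest WT level in pool 5, the pool with the highest level of 8 of the others. *Dsc2* fell by 2.36 on the log2 scale (standard error 0.48, adjusted p = 0.0383, edgeR).

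The 7 cadherin genes lie together on chromosome 18 of GRCm38, from *Dsc3* at 19960930 to the end of *Dsg2* at 20604521, with the desmocollins on the minus strand and the desmogleins on the plus strand. In this order they are *Dsc3* (ENSMUSG00000059898), *Dsc2* (ENSMUSG00000024331), *Dsc1* (ENSMUSG00000044322), *Dsg1a* (ENSMUSG00000069441), *Dsg1b* (ENSMUSG00000061928), *Dsg3* (ENSMUSG00000056632) and *Dsg2* (ENSMUSG00000044393). Neighbours in this cluster differed widely in level: *Dsc2* lies between *Dsc3* and *Dsc1*, and *Dsg1b* next to *Dsg1a*. Of the 7, *Dsc1* did not pass the test and the other 6 fell.

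Among the plaque proteins, *Dsp* encodes desmoplakin, the link from the plaque to keratin filaments (ENSMUSG00000054889, chromosome 13 of GRCm38, 38151328 to 38198577). It had 4727, 3824 and 3201 CPM in WT pools 5, 6 and 13 and 641 and 1186 CPM in Rag1-/- pools 2 and 7, and it took more counts than any other of the 10 genes in every library. *Dsp* fell by 2.06 on the log2 scale (standard error 0.38, adjusted p = 0.0335, edgeR), a level 4.16-fold lower. A gene on the other strand, *Gm10129*, shares 499 exonic bases with *Dsp* and had at most 9 counts in any library.

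*Jup* encodes plakoglobin (ENSMUSG00000001552, chromosome 11, 100368958 to 100397763), which binds cadherins in desmosomes and also in adherens junctions. It had 1629.6, 1272 and 925 CPM in WT pools 5, 6 and 13 and 280.4 and 613 CPM in Rag1-/- pools 2 and 7. The distance between the groups was the smallest of the 10 genes, with the lowest WT pool 1.51 times the highest Rag1-/- pool. With edgeR the change of -1.47 on the log2 scale missed the threshold (adjusted p = 0.084, standard error 0.42), while DESeq2 called it lower (-1.50, adjusted p = 0.00439).

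*Pkp1* encodes plakophilin 1, which clusters desmosomal components in the upper epidermis (ENSMUSG00000026413, chromosome 1, 135871395 to 135919207). It had 1515, 1235 and 991 CPM in WT pools 5, 6 and 13 and 196 and 553 CPM in Rag1-/- pools 2 and 7. Its change of -1.69 on the log2 scale also missed the threshold with edgeR (adjusted p = 0.08, standard error 0.48), and DESeq2 called it lower (-1.72, adjusted p = 0.00265). With DESeq2, 9 of the 10 genes were called lower, all but *Dsc1*, where 6.52% of all genes tested were.

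The promoters of *Dsp*, with the most counts of the 10 genes, and of *Jup*, which did not pass the test, are shown. Promoters of *Pkp1* and of the cadherins were not examined, and all 10 genes were lower in both Rag1-/- libraries. Whether these sequences bear on the levels was not tested. Each is the 250 bases before the RefSeq start on GRCm38.p6, written 5′ to 3′ on the strand of the gene, with matches to the GC box (GGGCGG on either strand) in capitals. The *Dsp* promoter is chr13:38151044-38151293 on the plus strand and the *Jup* promoter is chr11:100397791-100398040 on the minus strand.
Dsp: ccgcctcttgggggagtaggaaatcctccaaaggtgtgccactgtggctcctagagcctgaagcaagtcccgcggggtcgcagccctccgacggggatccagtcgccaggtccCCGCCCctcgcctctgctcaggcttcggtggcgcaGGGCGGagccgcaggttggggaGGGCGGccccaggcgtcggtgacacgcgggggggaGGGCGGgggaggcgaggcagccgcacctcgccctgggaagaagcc
Jup: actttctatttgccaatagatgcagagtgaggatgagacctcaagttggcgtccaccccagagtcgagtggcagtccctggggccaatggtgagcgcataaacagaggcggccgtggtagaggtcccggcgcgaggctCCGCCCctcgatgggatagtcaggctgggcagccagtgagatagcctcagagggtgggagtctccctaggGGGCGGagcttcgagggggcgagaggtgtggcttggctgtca
Both promoters were rich in G and C (72.4% in *Dsp* and 62.0% in *Jup*, against a median of 52.4% over 32851 RefSeq promoters). The GC box had 4 matches in *Dsp* and 2 in *Jup*, and 32.7% of all promoters held at least 1. The letters of an AP-1 site (TGANTCA), of a grainyhead site (AACCNGTT), of an E-box (CACCTG) and of a TATA box (TATAAA), searched on both strands, were in neither window, and were in 6.75%, 1.79%, 17.2% and 12.4% of all promoters.

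Per kilobase of the longest coding transcript, the 10 genes spanned a wide range of levels in WT. *Dsp* had 408 ± 80.0 CPM per kb (SD, n = 3), *Jup* 398 ± 109.9, *Dsc3* 299 ± 37.6 and *Pkp1* 267 ± 56.2, and neighbours among these 4 overlapped in their ranges over the WT libraries. *Dsg1a* followed with 153 ± 31.4 CPM per kb (SD, n = 3), apart from the genes above and below it. *Dsg3* had 53.6 ± 3.02 and *Dsc1* 48.3 ± 24.2 CPM per kb (SD, n = 3) and overlapped each other. *Dsg1b* (20.9 ± 4.56), *Dsg2* (10.7 ± 1.58) and *Dsc2* (3.38 ± 1.41 CPM per kb, SD, n = 3) stood apart from one another. In Rag1-/- libraries the order of the means was the same except that *Jup*, with 139 ± 73.3 CPM per kb (SD, n = 2), came before *Dsp* with 95.3 ± 40.1. The place of *Jup* depends on the length used, since over all annotated exons (6436 bases rather than 3205) its WT mean was 198 CPM per kb.

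The balance between upper-layer and basal cadherins was set apart in Rag1-/- pool 2 and was not in Rag1-/- pool 7. *Dsg1a* and *Dsg1b* held 73.9%, 69.8% and 67.7% of the desmoglein counts in WT pools 5, 6 and 13 and 73.7% in Rag1-/- pool 7 (exact 95% interval 73.0% to 74.4%). In Rag1-/- pool 2 they held 47.8% (45.4% to 50.2%). *Dsc1* held 14.7%, 8.64% and 8.34% of the desmocollin counts in WT pools 5, 6 and 13 and 8.76% in Rag1-/- pool 7 (8.39% to 9.13%). In Rag1-/- pool 2 it held 1.19% (0.82% to 1.67%). *Dsg3* took 41.1% of the desmoglein counts in pool 2 and between 21.7% and 27.7% in the other 4 libraries, and *Dsg2* took 11.1% in pool 2 and between 4.11% and 4.77% in the others. These intervals cover counting error only.

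**Figure D2:**
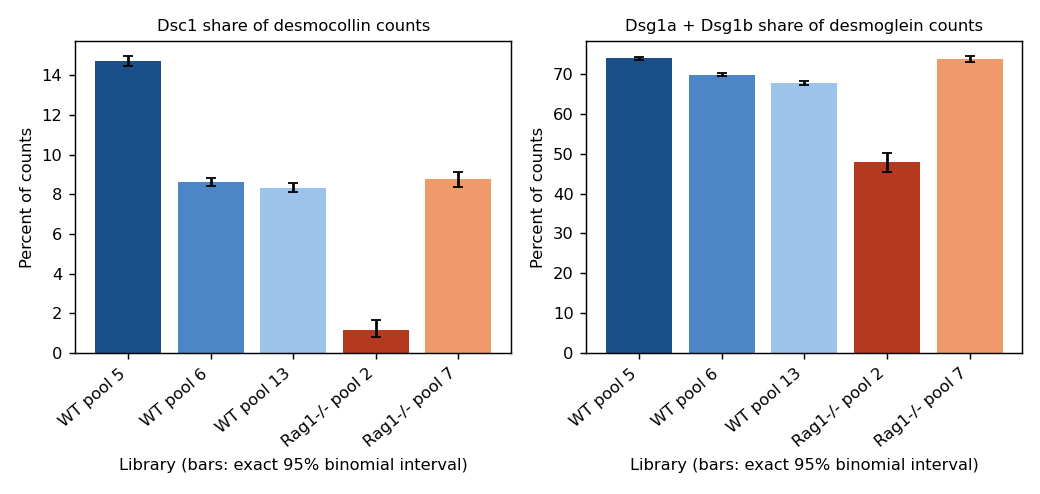
Share of *Dsc1* in all desmocollin counts (left) and of *Dsg1a* with *Dsg1b* in all desmoglein counts (right) in each library, in percent, with exact 95% binomial intervals. Rag1-/- pool 2 is lowest in both panels (1.19% and 47.8%), and Rag1-/- pool 7 lies within the range of the WT pools.

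The Rag1-/- pools accordingly differed from each other by gene. The ratio of pool 7 to pool 2 in CPM was 12.4 for *Dsc1*, 3.59 for *Dsg1b*, 2.91 for *Dsg1a* and 2.83 for *Pkp1*. It was 2.19 for *Jup*, 1.85 for *Dsp*, 1.56 for *Dsc3*, 1.46 for *Dsc2* (exact 95% counting interval 0.899 to 2.50), 1.03 for *Dsg3* (0.954 to 1.12) and 0.708 for *Dsg2* (0.602 to 0.837). *Dsc1* had the highest of these ratios. The intervals of *Dsg1b* (2.72 to 4.84), *Dsg1a* (2.71 to 3.14) and *Pkp1* (2.69 to 2.98) overlapped, so their order is not settled. The intervals of *Dsg3* and *Dsc2* included equal levels. Other genes of the upper epidermis, chosen for this comparison after their values were seen, had ratios over a wide range. They were 33.0 for *Cdsn* (corneodesmosin, a component of the desmosomes of the horny layer), 28.3 for *Klk7* (a protease that cleaves it), 11.4 for *Spink5* (the inhibitor of such proteases), and 8.72, 6.84 and 3.94 for the upper-layer keratins *Krt10*, *Krt2* and *Krt1*. The envelope plakins *Ppl* and *Evpl* had ratios of 1.99 and 2.00, and the basal keratins *Krt14* and *Krt5* had 1.70 and 1.67. The counting intervals of *Ppl* (1.83 to 2.15) and *Krt14* (1.67 to 1.73) did not overlap. *Perp*, a membrane protein of desmosomes, had a ratio of 3.25. In Rag1-/- pools 2 and 7, the keratin gene *Krt15* had 396 and 863 CPM and *Klf4* had 501 and 410 CPM. With 1 pool on each side, these ratios have no replicate check.

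**Figure D3:**
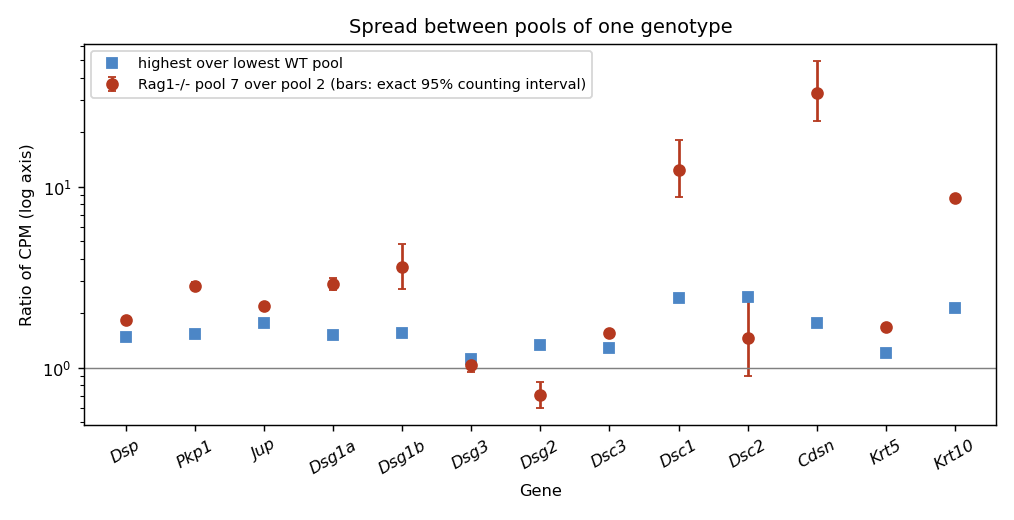
Ratio of CPM between pools of one genotype (log axis) for the 10 desmosome genes, *Cdsn*, *Krt5* and *Krt10*. Red points are Rag1-/- pool 7 over pool 2 with exact 95% counting intervals, blue squares are the highest over the lowest WT pool, and *Cdsn* (33.0) and *Dsc1* (12.4) stand highest while *Dsg3* is at 1.03.

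The calls of the 10 genes depended on single libraries. Without WT pool 5, 6 or 13 none of the 10 was called by edgeR, with 9, 10 and 10 of them at an unadjusted p under 0.05 and adjusted p-values between 0.0544 and 0.264. No gene at all was called in these fits, with 3521, 3735 and 3874 genes at an unadjusted p under 0.05. Without Rag1-/- pool 2 none was called either, with 10 at an unadjusted p under 0.05 and adjusted p-values between 0.0659 and 0.154, and no gene of 20168 tested was called, with 5200 at an unadjusted p under 0.05. Without Rag1-/- pool 7, 9 of the 10 were called (all but *Dsc2*, adjusted p = 0.0521) where 7.98% of all genes tested were called lower, and the log2 fold change of *Dsc1* was -5.65. Without that pool, the log2 fold changes of *Dsg1a* (-3.26), *Dsg1b* (-3.72), *Pkp1* (-2.73), *Jup* (-2.25) and *Dsp* (-2.67) also moved by over 1.5 times in fold. Without pool 2 those of *Dsc1* (-1.88), *Dsg1a* (-1.58), *Dsg1b* (-1.74) and *Pkp1* (-1.10) did, towards 0. In each of these fits all 10 log2 fold changes were negative. With a single Rag1-/- library left, that library is assumed to vary like the WT libraries.

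To see whether the 10 genes differed beyond the rest of the epidermal transcripts, the libraries were also scaled on the 30 epidermal genes. In counts, the 10 genes stood at 24.5, 25.0 and 23.6 per 100 counts of the epidermal list in WT pools 5, 6 and 13, and at 19.0 and 16.2 in Rag1-/- pools 2 and 7. Scaled in this way, the median log2 fold change of the 10 genes was -0.39, and *Dsc1* alone was called lower (-1.60, standard error 0.62, adjusted p = 0.0229, edgeR), where 0.31% of all genes tested were. *Dsg1b* followed with -1.04 (adjusted p = 0.0982) and *Dsc2* with -0.89 (adjusted p = 0.236, edgeR for both). *Dsg3* was at -0.17 (standard error 0.59, adjusted p = 0.812) and *Dsc3* at -0.25 (standard error 0.61, adjusted p = 0.725, edgeR for both). Their standard errors were 0.20 and 0.30 in the main test. The standard error rose for each of the 10 genes except *Dsc1*, where it went from 0.94 to 0.62. With this loss of precision, the fit cannot show that an uncalled gene follows the epidermal list. *Dsg2* (0.23, adjusted p = 0.728) and *Jup* (0.04, adjusted p = 0.96) turned positive without passing the test. This scaling moved the median of all genes to 1.70, so that the 10 genes were 2.09 under it, against 1.98 under it with the TMM scaling of the main test.

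**Figure D4:**
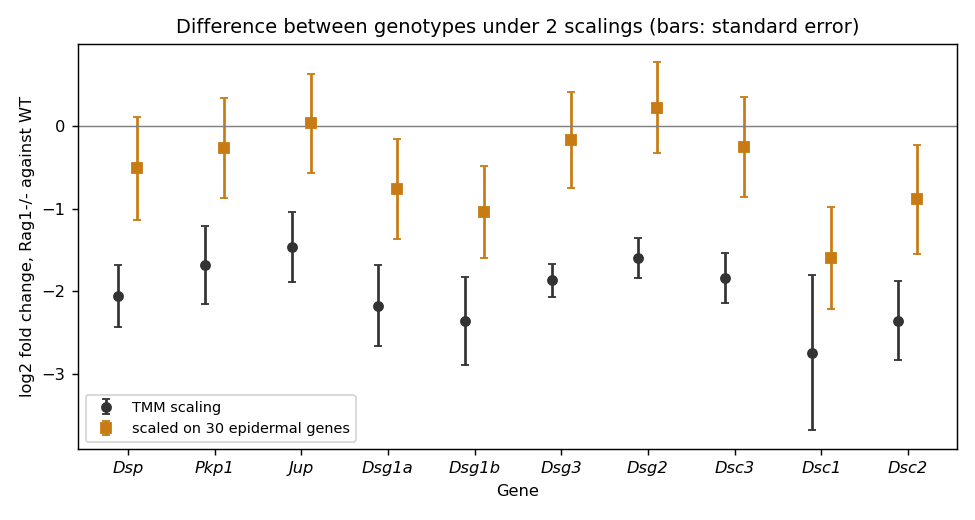
log2 fold change of the 10 genes (Rag1-/- against WT, bars for the standard error) with TMM scaling (black circles) and with scaling on the 30 epidermal genes (orange squares). With TMM all 10 lie between -2.75 and -1.47, and with the epidermal scaling *Dsc1* (-1.60) is the only one called and *Dsg2* and *Jup* lie above 0.

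Within single libraries the ratios to the epidermal list ran differently by gene. *Dsp* had 100.4, 101 and 97.3 counts per 1000 epidermal counts in WT pools 5, 6 and 13 and 72.8 and 57.5 in Rag1-/- pools 2 and 7, without overlap. *Dsg1a* had 22.4, 22.9 and 21.2 in WT and 10.8 and 13.5 in Rag1-/- pools 2 and 7, also without overlap. *Jup* had 34.6, 33.6 and 28.1 in WT and 31.8 and 29.7 in Rag1-/- pools 2 and 7, within the WT range. *Dsg3* had 7.19, 9.19 and 9.47 in WT and 9.94 and 4.39 in Rag1-/- pools 2 and 7, on either side of WT.

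Of 9 other genes of the desmosome and its envelope, 8 were tested. All 8 were lower in both Rag1-/- libraries than in every WT library, where 24% of all genes tested were. With edgeR 2 of the 8 fell, where 2.16% of all genes tested were called lower. Both encode plakins that bind the plaque and the cornified envelope: *Ppl*, periplakin, had a log2 fold change of -1.99 (adjusted p = 0.0368) and *Evpl*, envoplakin, one of -1.78 (adjusted p = 0.0444, edgeR for both). The plakophilins *Pkp3* (-1.32, adjusted p = 0.0867), *Pkp2* (-1.13, adjusted p = 0.149) and *Pkp4* (-0.82, adjusted p = 0.0743) missed the threshold with edgeR. With DESeq2, 4 of the 8 were called lower, where 6.52% of all genes tested were. The DESeq2 calls were *Ppl*, *Evpl*, *Pkp3* (-1.35, adjusted p = 0.00767) and *Perp* (-1.36, adjusted p = 0.0301). *Perp*, a membrane protein of desmosomes that p63 controls, averaged 2811 ± 369.8 CPM over the WT libraries (SD, n = 3) and 1081 ± 809 CPM over the Rag1-/- libraries (SD, n = 2), and its change of -1.33 missed the threshold (adjusted p = 0.15, edgeR). *Cdsn* had 29 counts in Rag1-/- pool 2 and 4628 in pool 7, and the change of -2.07 missed the threshold (adjusted p = 0.287, edgeR). *Dsg1c*, the least expressed *Dsg1* copy, ranged from 37 to 50 counts in WT, with 0 in Rag1-/- pool 2 and 13 in pool 7 (log2 fold change -2.28, adjusted p = 0.144, edgeR), and 0 counts in pool 2 allow up to 0.373 CPM. *Dsg4*, the desmoglein of the hair shaft, had at most 2 counts in any library and was not tested.

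Of 12 genes of adherens junctions, the actin-linked cadherin junctions of the same cells, 3 fell and none rose, with a median log2 fold change of -1.17, and 7 were called lower with DESeq2. Over all genes tested, 2.16% were called lower with edgeR and 6.52% with DESeq2. *Cdh3* (P-cadherin) changed by -1.38 (adjusted p = 0.0306), *Afdn* (afadin) by -1.41 (adjusted p = 0.0306) and *Plekha7* by -1.36 (adjusted p = 0.0306, edgeR for the 3 genes). The genes nearest to 0 were *Ctnnb1* (beta-catenin, the relative of plakoglobin that most cells express), with a log2 fold change of 0.00 (adjusted p = 0.994), and *Vcl* (vinculin), with -0.55 (adjusted p = 0.161, edgeR for both). *Ctnnb1* had 662 CPM in WT and 646 CPM in Rag1-/- libraries on average, where *Jup* had 1276 and 447 CPM.

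Of 12 epidermal keratins, to whose filaments desmoplakin attaches, none passed with edgeR, although all 12 had a negative log2 fold change (median -1.52). With edgeR, 8 of the 12 had an unadjusted p under 0.05, as did 5023 of all 19011 genes tested. DESeq2 called 8 of the 12 lower, where 6.52% of all genes tested were. *Krt14*, the basal keratin, was among the 2 nearest to 0 with -1.15 (adjusted p = 0.084), and *Krt6a*, a keratin of hair follicle and wounded epidermis, had -0.63 (adjusted p = 0.174, edgeR for both). The list shares 5 genes with the epidermal list used for scaling.

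Of 15 transcription factors of keratinocytes and of their repressors, 6 fell and 1 rose, with a median log2 fold change of -1.46, and DESeq2 called 10 lower and 1 higher. Over all genes tested, 2.16% were called lower and 3.58% higher with edgeR, and 6.52% lower and 6.38% higher with DESeq2. *Trp63*, which encodes p63, the master factor of stratified epithelium, changed by -1.83, *Grhl2*, a grainyhead factor of epithelial junction genes, by -1.93 and *Tfap2a* by -1.71 (adjusted p = 0.0306 for the 3 genes, edgeR). *Klf5* (-1.46, adjusted p = 0.0318) and *Tfap2c* (-1.83, adjusted p = 0.0384) were lower too, as was *Ehf* (-1.44, adjusted p = 0.0401, edgeR for the 3 genes). *Zeb1*, a repressor of epithelial cadherins that lymphocytes also express, was the gene that rose, with 74.7 CPM in WT and 182 CPM in Rag1-/- libraries on average and a log2 fold change of 1.31 (adjusted p = 0.0457, edgeR). *Ehf* and *Zeb1* were named after their values were seen. *Klf4* (-0.84, adjusted p = 0.0763) and *Zeb2* (-0.28, adjusted p = 0.526, edgeR for both) were nearest to 0.

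Of 8 tested proteases and inhibitors that act on desmosomal cadherins and corneodesmosin, none passed with edgeR or with DESeq2 and 3 had an unadjusted p under 0.05 with edgeR, with 6 negative and 2 positive log2 fold changes. *Adam10* (-0.04, adjusted p = 0.937) and *Adam17* (0.21, adjusted p = 0.55, edgeR for both), the broadly expressed sheddases that cut desmogleins, were nearest to 0. Of 6 genes of desmosome assembly and calcium supply, such as the kinase gene *Prkca* (-0.34, adjusted p = 0.336) and *Rhbdf2* (-0.31, adjusted p = 0.435, edgeR for both), none passed with edgeR, 1 had an unadjusted p under 0.05, and 1 was called with DESeq2. Their median log2 fold change was -0.39. Over all 19011 genes tested, 5023 had an unadjusted p under 0.05 with edgeR, and DESeq2 called 12.9%.

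**Figure D5:**
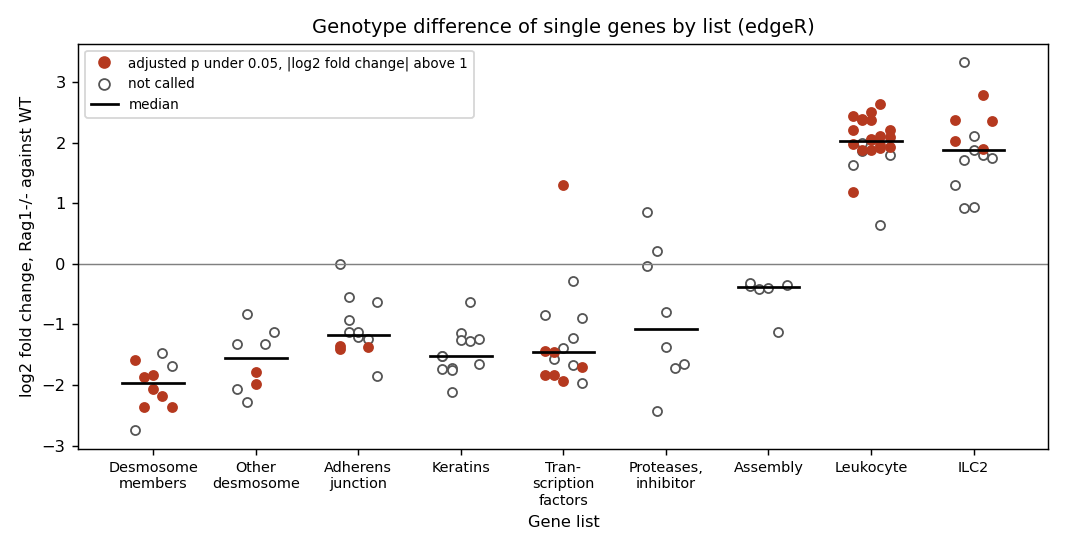
log2 fold change (Rag1-/- against WT) of single genes in each list, with genes past the thresholds in red, others open, and the median as a line. The 10 desmosome genes have a median of -1.96, the lists of assembly genes and of leukocyte genes have medians of -0.39 and 2.02.

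The log2 fold changes of marker lists for the cells of the skin are given beside these results. The median log2 fold change was -1.45 over the 30 epidermal genes, with 11 called lower, where 2.16% of all genes tested were. It was -1.23 over 9 tested hair follicle genes, with 1 called lower. Over the fibroblast, endothelial, melanocyte, mast cell and myeloid lists (7 or 8 genes each) it lay between -0.48 and 0.22. Of these 36 genes edgeR called none and DESeq2 called 3, where 5.74% and 12.9% of all genes tested were called in either direction. With edgeR, 3 had an unadjusted p under 0.05, against 5023 of all 19011 genes tested. Over the 6 T cell genes the median was 0.78, with log2 fold changes from -1.48 (*Cd5*) to 2.23 (*Cd3g*). Of these, 2 were called higher (*Cd3g* and *Cd247*), and *Cd3e* and *Cd3d* overlapped between the groups. Over the 24 leukocyte genes the median was 2.02, with 19 called higher, where 3.58% of all genes tested were. These medians describe the lists and were not tested against each other. They also hide the spread within a list. Log2 fold changes of the mast cell genes ran from -1.43 to 1.88, with 1 called lower and 1 called higher by DESeq2. Their summed level was 141, 278 and 238 CPM in WT pools 5, 6 and 13 and 569 and 422 CPM in Rag1-/- pools 2 and 7.

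The profile over the 5 libraries that the 10 genes shared, taken as the median of their log2 CPM after centring each gene, was 1.04, 0.83 and 0.62 in WT pools 5, 6 and 13 and -1.71 and -0.76 in Rag1-/- pools 2 and 7. *Dsp* was nearest to it (root mean squared difference 0.06 on the log2 scale), and *Dsc1* was furthest away (1.19). Among 10008 other genes at 10 CPM or more on average, the 8 nearest were *Bcl11a*, *Tfap2c*, *Esrp2*, *Ppl*, *Kif21a*, *Erbb2*, *Otx1* and *Extl1*, with differences between 0.091 and 0.115. *Esrp2* encodes an epithelial splicing regulator and *Erbb2* a receptor kinase of the EGF receptor family. The 8 genes had log2 fold changes between -2.06 and -1.73. Because they were chosen by likeness to this profile, values near those of the 10 genes were fixed in advance.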

How the data were processed

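Polyadenylated RNA of 5 pools of sorted skin cells was sequenced as single reads of 50 bases. Per the labels and the methods, the authors aligned the reads with STAR 2.5 and deposited raw counts per gene from featureCounts 1.5.0-p1. The submitters' processing notes name GRCm38 and GRCm39. The annotation is release 103 in the series text and release 84 in the methods, and the handling of reads that map to several places is not given in the sources used here. The deposited normalized table was not used.

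Counts were tested with edgeR 4.0.16 (R 4.3.3, filterByExpr, TMM, quasi-likelihood test, Rag1-/- against WT, no covariate), with Benjamini-Hochberg adjustment over all 19011 genes and a call needed an adjusted p under 0.05 with a log2 fold change beyond 1 in either direction. CPM are counts scaled to a library total of 1000000, relative to the other transcripts of the library, and the standard error is the log2 fold change over the root of the F statistic. DESeq2 1.42.0, other scalings, filters, thinning to the shallowest library and leaving out each library were the alternatives. The p-values weigh the genotype difference against the spread between pools, which was estimated with information shared across genes. An exact permutation test of 3 against 2 libraries has 10 splits and cannot reach 0.05, so none was used.

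The 10 genes and all lists were chosen with earlier results of these data known. Named were the 10 genes, the other desmosome genes, up to 5 called genes and the 2 nearest to 0 in each other list of junction genes and their regulators, and the 8 genes of most similar profile. For 6 list genes the match was by gene ID.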

Additional observations from a re-analysis of the deposited data

How the results depend on the processing

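The number of desmosome genes called lower was 7 in the main test, 9 with DESeq2 and 1 with scaling on the epidermal list. The number was 10 without a filter on low counts, where 4.98% of all genes tested were called lower, and 10 with scaling on the leukocyte list, where 73.7% were. It was 0 without WT pool 5, 6 or 13 or Rag1-/- pool 2, and 9 without Rag1-/- pool 7. Their median log2 fold change was -0.39 with scaling on the epidermal list and -4.20 with scaling on the leukocyte list, and lay between -2.70 and -1.70 with 1 library left out. Scaling on the epidermal list turned *Dsg2* to 0.23 and *Jup* to 0.037, and 148 of 150 values of single desmosome genes under the alternatives kept their sign. Part of this tally was fixed in advance. Calling on adjusted p alone and the robust fit keep the fold changes of the main test, so no sign could change there. Scaling on the leukocyte list moved the median of all genes to -2.17, so negative values could hardly turn positive. Over all genes, 1091 were called (411 lower and 680 higher), against 2453 with DESeq2 (1240 lower, 1213 higher), 11406 with scaling on the epidermal list (59 lower, 11347 higher), 14034 with scaling on the leukocyte list (14018 lower, 16 higher) and 2645 without a filter (1488 lower, 1157 higher), and 0 to 2409 with 1 library left out. In the lists of other junction genes and regulators, 12 were called, against 31 with DESeq2, 60 with scaling on the leukocyte list, 39 without a filter and 19 with at least 10 counts in every library, and 0 to 42 with 1 library left out. The causes of these shifts were not tested. No paired analysis was possible because the groups share no replicate number. Depth limits the scarce genes most in Rag1-/- pool 2, where *Dsc2* had 19 counts, *Dsc1* 33 and *Dsg1b* 53.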
